A study of Mus musculus with 16 samples.

Results

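The genes of the DNA replication machinery were followed in CD4+ T cells sorted after transfer into mice that presented their antigen not at all, transiently or persistently. The 48 genes came from a list of names that covers origin licensing, the replicative helicase, the DNA polymerases, the sliding clamp and its loaders, the single-strand binding protein, lagging-strand enzymes and fork-protecting factors. The list is of names and applies no measured value, but it was chosen with earlier results of these data known. All 48 were measured, as 48 of the 18193 named genes tested, and 100 probe sets of the array belonged to them. For each gene the probe set with the highest mean over all arrays was used.

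A cell that leaves rest must license its origins before it can copy its DNA. The origin recognition complex, Cdc6 and Cdt1 load the MCM2-7 helicase in G1, and the kinase Cdc7 with Dbf4, together with Cdc45, the GINS complex and Mcm10, turns the loaded helicase into a moving fork in S phase. Polymerase alpha-primase then starts each strand, and polymerases delta and epsilon extend it on the Pcna clamp. Resting T cells keep many of these genes low, and the E2F factors that act at the G1 to S transition are known to drive many of them.

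RNA came from AND T cells, which carry a transgenic receptor for a moth cytochrome c peptide. Donor lymph node cells carrying CD90.1 were injected into B10.BR mice on day 0, and CD4+CD90.1+ cells were flow sorted 60 h later. All donor cells carried the AND receptor, all recipients carried the TIM transgene, and mice were 6 to 8 weeks old. The study compared 3 antigen regimes, each with PBS or with the stimulatory CD40 antibody FGK45.5, injected on day -1.

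Recipients with transient or persistent antigen were Ii-rTA+, TIM+ and made the peptide under doxycycline control. Doxycycline was given from day -1 to day 0 for transient antigen and from day -1 to day 3 for persistent antigen. Recipients without antigen were Ii-rTA-, TIM+, and so had another genotype beside the lack of antigen. Their titles read no dox, while the treatment notes of 3 of these 5 arrays give doxycycline from day -1 to day 3 and the other 2 carry no treatment notes. Exposure to doxycycline itself therefore cannot be told apart from antigen. No and transient antigen with anti-CD40 had 2 arrays each (replicates 1 and 2), and the other 4 groups had 3 each. The labels do not say whether each replicate was a different animal, and p-values then cover only the spread between these samples, which may be technical.

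The 16 arrays had median intensities of 18.2 to 21.3. The 8 measured T cell markers, among them Cd3d, Cd3e and Cd28, summed to intensities of 7106 to 10994 per array, and all 8 were above the median probe set in every array. The 6 B cell markers summed to 229 to 477, the 9 dendritic cell and macrophage markers to 205 to 324, the 5 NK and CD8 T cell markers to 113 to 232, the 4 granulocyte markers to 55 to 76, the 2 erythrocyte markers to 18 to 29 and the 4 plasma cell markers to 293 to 631. Arrays with the same replicate number deviated together from their group means (lowest correlation 0.48 in 36 pairs), so a second fit took the replicate number as a block, and its value stands beside a result where it alters the call or shifts a count more than 1.5 times. The labels give array numbers in 4 runs: replicate 1 is the first, replicate 3 the second, and replicate 2 without antigen and with antigen the remaining runs.

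Promoter stretches of 7 of the genes are shown first because they carry letters that E2F factors are known to bind and because they include genes that moved and genes that did not. RefSeq promoter windows (GRCm38.p6, 250 bases before to 50 after each start) were found for 38 of the 48 genes. Gmnn, Mcm4, Gins1, Gins2, Gins4, Prim2, Pole, Rfc2, Dscc1 and Tipin had none in the table. The letters searched on both strands, overlaps included, were TTTCCCGC, TTTCGCGC, TTTGCCGC and TTTGGCGC, and matches are in capitals.
Cdc6, chr11:98907997-98908036, plus strand: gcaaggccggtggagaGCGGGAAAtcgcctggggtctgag
Mcm5, chr8:75109340-75109383, plus strand: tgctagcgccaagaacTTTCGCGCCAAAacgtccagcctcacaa
Mcm6, chr1:128359729-128359831, minus strand: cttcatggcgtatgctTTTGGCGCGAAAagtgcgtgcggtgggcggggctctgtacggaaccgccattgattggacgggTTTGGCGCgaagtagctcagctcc
Mcm7, chr5:138172025-138172064, minus strand: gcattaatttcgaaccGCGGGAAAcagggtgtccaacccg
Pola1, chrX:93632270-93632309, minus strand: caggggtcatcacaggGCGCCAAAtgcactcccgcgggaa
Orc1, chr4:108579411-108579450, plus strand: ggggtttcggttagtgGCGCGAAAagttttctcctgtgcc
Orc3, chr4:34614960-34614999, minus strand: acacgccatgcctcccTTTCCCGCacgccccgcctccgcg
In the Mcm5 stretch and in the first capital run of Mcm6, matches on both strands overlap. On the minus strand of the gene the same letters read from right to left as their complement, as in the Cdc6, Mcm7, Pola1 and Orc1 stretches.

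The E2F letters occurred in the windows of 14 of the 38 genes (36.8%), against 744 of 32851 windows (2.26%) and 704 of 27025 genes (2.605%) in the whole table. The 14 were Cdc6, Cdt1, Lig1, Mcm3, Mcm5, Mcm6, Mcm7, Orc1, Orc3, Pola1, Pold1, Pold3, Pole2 and Rfc3. A CCAAT box (the letters CCAAT on either strand) was in 21 of the 38 (55.3%) against 41.1% of all genes. The cell cycle homology region (TTTGAA), known from genes expressed late in the cycle, was in 6 (15.8%) against 20.2%. These are matches of letters, not measured binding sites.

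**Figure D1:**
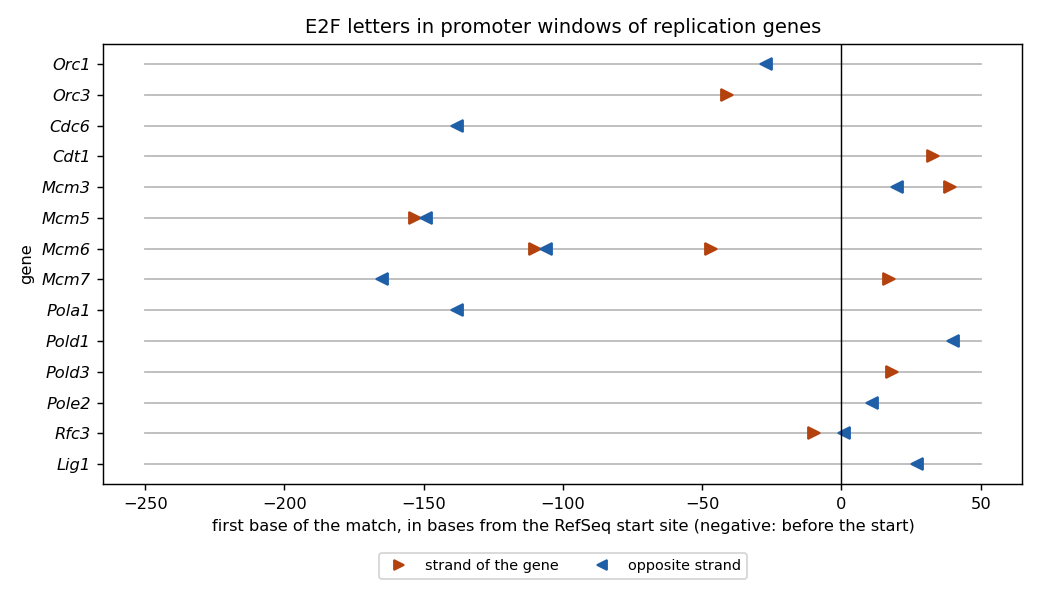
Positions of the E2F letters in the promoter windows of the 14 replication genes that hold them, in bases from the RefSeq start (x axis), one gene per line, with right-pointing marks for the strand of the gene and left-pointing marks for the opposite strand. Mcm6 has 3 matches, all before the start, while those of Cdt1, Mcm3, Pold1, Pold3, Pole2 and Lig1 all lie after it.

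Genes with these letters and genes without them were found both among those that rose and among those with no call. Genes without a window in the table are left out here. With persistent against no antigen and PBS, the 14 genes with the letters had a median difference of 1.74, and 7 of them rose (12 with the replicate block). The 24 genes whose windows lack them had a median of 1.13, and 8 of them rose (18 with the block). Of all genes 2.20% rose in this comparison, and 9.93% with the block. Orc1 and Orc3, both with a match close before the start, are among those with no call, and Pcna and Orc6, which have a CCAAT box but no E2F letters, are among those that rose in one or both fits. Those calls rest on the probe sets used, as dimmer probe sets of Orc1 and Orc3, described below, rose with the block. The difference between the medians was not tested.

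By the median of the 48 genes the groups fell into a low and a high set, called states here for short. Transient antigen with PBS stood in the low one. Single genes such as Orc5 and Pold3 overlapped between the sets, and whether these are distinct states was not tested. The median of the 48 genes was 7.13, 6.30 and 6.66 in log2(intensity + 1) in the arrays without antigen and with PBS (replicates 1, 2 and 3), and 7.43 and 5.97 without antigen and with anti-CD40. Transient antigen with PBS gave 7.17, 6.48 and 6.71, within the range of the arrays without antigen. Transient antigen with anti-CD40 gave 8.45 and 7.86, persistent antigen with PBS 8.49, 7.65 and 8.05, and persistent antigen with anti-CD40 8.40, 8.25 and 8.30. Every array of these last 3 groups lay above every array of the first 3. The median over all 18193 genes moved little, from 4.84 to 5.02. In sorted cells, a larger share of cells with a transcript and more transcript per cell cannot be told apart.

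**Figure D2:**
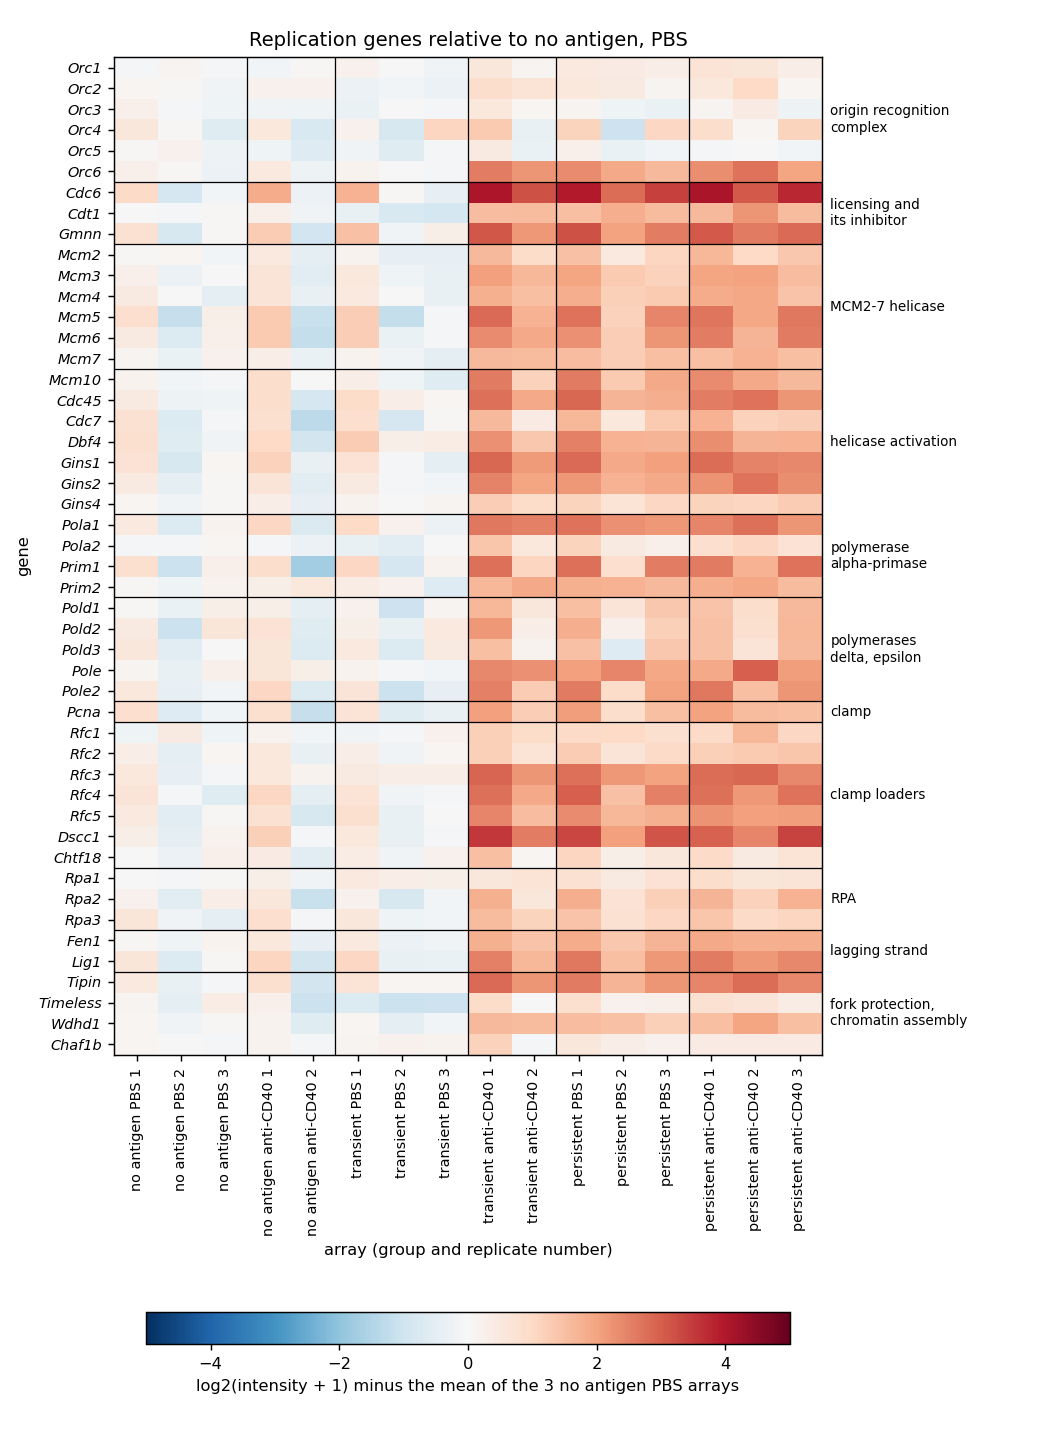
Heat map of the 48 replication genes (rows, grouped by complex) in the 16 arrays (columns, by group and replicate), coloured by log2(intensity + 1) minus the mean of the 3 arrays without antigen and with PBS. The 8 columns on the right, transient antigen with anti-CD40 and both persistent groups, are red in most rows, and Orc1, Orc3, Orc5 and Chaf1b are among the palest.

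Markers of other cells moved with this pattern in part. The B cell sum was 329 to 451 in the 3 groups of the high state, against 229 to 314 in the arrays with no or transient antigen and PBS and 272 and 477 without antigen and with anti-CD40. Of the 6 genes Cd22 rose with persistent against no antigen and PBS (difference 1.44, adjusted p = 0.0040), where Ms4a1 and Blk differed by -0.30 and -0.44 and were not called in either fit. With anti-CD40 and the block, Ms4a1 fell with transient against no antigen (-1.66, adjusted p = 0.0011), and Ms4a1 and Blk fell with persistent against no antigen (adjusted p = 0.029 and 0.031). Without the block neither was called there. Cd79a, which encodes a part of the B cell receptor, and Pax5, which sets B cell identity, lay below the median probe set of 4.37 in every array (at most 3.93 and 4.23). The plasma cell sum was 430 to 631 in the high state against 293 to 387 elsewhere, and most of it was Xbp1, which activated T cells also express. The NK and CD8 T cell sum was 169 to 232 without antigen and 113 to 183 in the 4 groups with it. Among its genes Eomes fell, with the block only, with transient and persistent against no antigen and PBS. Its differences were -1.54 and -1.32 (adjusted p = 0.0027 and 0.0017 with the block). Cd8a, Cd8b1, Ncr1 and Klrk1 were not called there in either fit. The T cell sum was 7106 to 8894 in the high state against 7487 to 10994 elsewhere. Of its genes Cd5 fell with persistent against no antigen and PBS (-1.54, adjusted p = 0.0069). Cd3g and Cd2 fell there with the block only (-0.58 and -0.73, adjusted p = 0.031 and 0.015 with it). Cd3d, Cd3e, Cd28, Zap70 and Lat were not called there in either fit. With anti-CD40, Cd5 also fell with persistent against no antigen (-1.47, adjusted p = 0.028). The part of all these markers in the replication results was not tested.

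Persistent antigen with PBS raised much of the machinery over no antigen. Of the 48 genes 24 rose and none fell, and 40 rose with the replicate block, where 2.20% and 9.93% of all 18193 genes rose and 6.79% fell with the block. The median difference was 1.49, from -0.13 for Orc3 to 3.40 for Cdc6, against -0.03 over all genes, and 46 of 48 were above 0. In 41 genes all 3 persistent arrays exceeded all 3 arrays without antigen, as did 8.4% of all genes. The 8 not called in either fit were Orc1, Orc2, Orc3, Orc4, Orc5, Pola2, Timeless and Chaf1b. Within replicates 1, 2 and 3 the median difference was 1.56, 1.52 and 1.53. Without the block the count fell to 15 when no antigen, PBS, replicate 2 was left out, to 14 without its replicate 3, to 13 without persistent PBS replicate 1 and to 15 without its replicate 3. With the block it was 38 to 42 whichever array was left out.

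Transient antigen with PBS left the list at the level of no antigen. No gene was called by limma without the block (2 had an unadjusted p under 0.05), where 0.126% of all genes were called in either direction (0.0934% higher and 0.033% lower). With the block 1 gene fell and none rose, where 2.89% of all genes were called (0.868% lower and 2.02% higher). The median difference was 0.04 and 29 of 48 were above 0. The 95% intervals of the single genes ran from -1.70 to 1.83, so sizeable differences were within the error for some genes. The 1 gene was Timeless, which keeps the fork stable together with Tipin. It read 7.71, 7.10 and 7.94 without antigen and 6.91, 6.50 and 6.57 with transient antigen, so the groups did not overlap. The difference was -0.93 ± 0.36 (adjusted p = 0.92), and adjusted p = 0.022 with the block. That call was lost without no antigen, PBS, replicate 3 and without each of the 3 transient PBS arrays, when 0 genes were called. It became 3 genes without either array of no antigen with anti-CD40, and 2 without persistent anti-CD40 replicate 2. Cdt1, the licensing factor destroyed in S phase, was lower in every transient array than in every array without antigen as well (7.95, 7.58 and 7.45 against 8.33, 8.27 and 8.41), with a difference of -0.68 ± 0.24 that did not pass in either fit (adjusted p = 0.78, and adjusted p = 0.058 with the block). Of the 48 genes 2 lay lower in every transient array and 2 higher, where 3.04% and 7.08% of all genes did.

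Persistent antigen with PBS also raised these genes over transient antigen, a comparison that shares its persistent arrays with the one over no antigen. Here 16 genes rose, and 40 with the block, where 0.605% and 5.99% of all genes rose and 5.44% fell with the block. The median was 1.57, and 38 genes had no overlap between arrays, as 6.06% of all genes did in this direction. The 8 not called in either fit were Orc1, Orc3, Orc4, Orc5, Pold3, Chtf18, Rpa1 and Chaf1b. The count of 16 fell to 7 without transient PBS replicate 2, to 6 without its replicate 3, to 6 without persistent PBS replicate 1 and to 7 without its replicate 3. With the block it stayed at 37 to 41.

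Anti-CD40 raised much of the machinery when antigen was transient. With transient antigen, 12 genes were higher with anti-CD40 than with PBS, and 42 with the block, where 0.522% and 7.59% of all genes were, and 2.92% were lower with the block. The median difference was 1.76, all 48 genes were above 0, and in 40 both anti-CD40 arrays exceeded all 3 PBS arrays (10.5% of all genes). The 6 not called in either fit were Orc1, Orc3, Orc4, Orc5, Rpa1 and Chaf1b. The count of 12 was 5 without transient PBS replicate 2, 4 without its replicate 3 and 0 without transient anti-CD40 replicate 1, when 1 array of that group was left and was assumed to vary like the others. With the block it was 33 to 42.

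In the other regimes anti-CD40 gave no calls among the 48 genes. Without antigen no gene was called in either fit (0 with an unadjusted p under 0.05, and 2 with the block), where 0% and 0.0055% of all genes were called in either direction, and differences ran from -0.43 to 0.77. Their 95% intervals ran from -2.23 to 2.31, and 20 of the 48 lay within 1 on either side of 0. The sign was not shared by the replicates, since the median was 0.26 in replicate 1 and -0.21 in replicate 2. With persistent antigen no gene was called either (0 and 2 with an unadjusted p under 0.05), where 0% of all genes were called, and differences ran from -0.07 to 0.54 with a median of 0.23, with 47 of 48 above 0. Replicates again differed in sign: the median was -0.04, 0.55 and 0.19 in replicates 1, 2 and 3, with 15, 47 and 40 genes above 0. The 95% intervals of the persistent comparison ran from -1.31 to 1.91, and 24 of the 48 lay within 1.

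With anti-CD40, transient antigen too was accompanied by higher replication genes. Transient against no antigen with anti-CD40 gave 9 genes that rose, and 42 with the block, where 0.423% and 10.5% of all genes rose and 3.48% fell with the block. The median was 1.53, every gene was above 0, and 39 had no overlap (15.8% of all genes). Persistent against no antigen with anti-CD40 gave 21, and 43 with the block, where 1.64% and 10.9% of all genes rose and 5.5% fell with the block. Its median was 1.76, and 45 genes had no overlap (13.5% of all genes). Both comparisons use the same 2 arrays without antigen, which lie far apart (7.43 and 5.97 in the median gene). Without the second of them both counts fell to 0, and without the first the transient count rose to 24. The transient count was also 0 without transient anti-CD40 replicate 1 and 3 without its replicate 2, 4 without persistent PBS replicate 3, and 5 without no antigen, PBS, replicate 3, transient PBS replicate 2 or persistent anti-CD40 replicate 1 or 3. The persistent count was 8, 10 and 10 without persistent anti-CD40 replicates 1, 2 and 3. With the block the counts were 33 to 43 and 36 to 43.

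Persistent and transient antigen were not distinguished once anti-CD40 was given. No gene was called in either fit (0 with an unadjusted p under 0.05 in both), where 0.0055% and 0.077% of all genes were called in either direction. Differences ran from -0.23 to 0.44 with a median of 0.09, and their 95% intervals from -1.61 to 2.24. Replicates differed in sign, with a median of -0.14 in replicate 1 (14 genes above 0) and 0.41 in replicate 2 (43 above 0). A p that misses the threshold does not show that the groups were alike, and 24 of the 48 intervals lay within 1 on either side of 0. Set against persistent antigen and PBS, the transient anti-CD40 arrays gave 0 calls as well (0 with an unadjusted p under 0.05 in both fits, and 0% and 0.055% of all genes called in either direction, 0.033% lower with the block). Its differences ran from -0.19 to 0.45, with a median of 0.15 and intervals from -1.94 to 1.91.

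**Figure D3:**
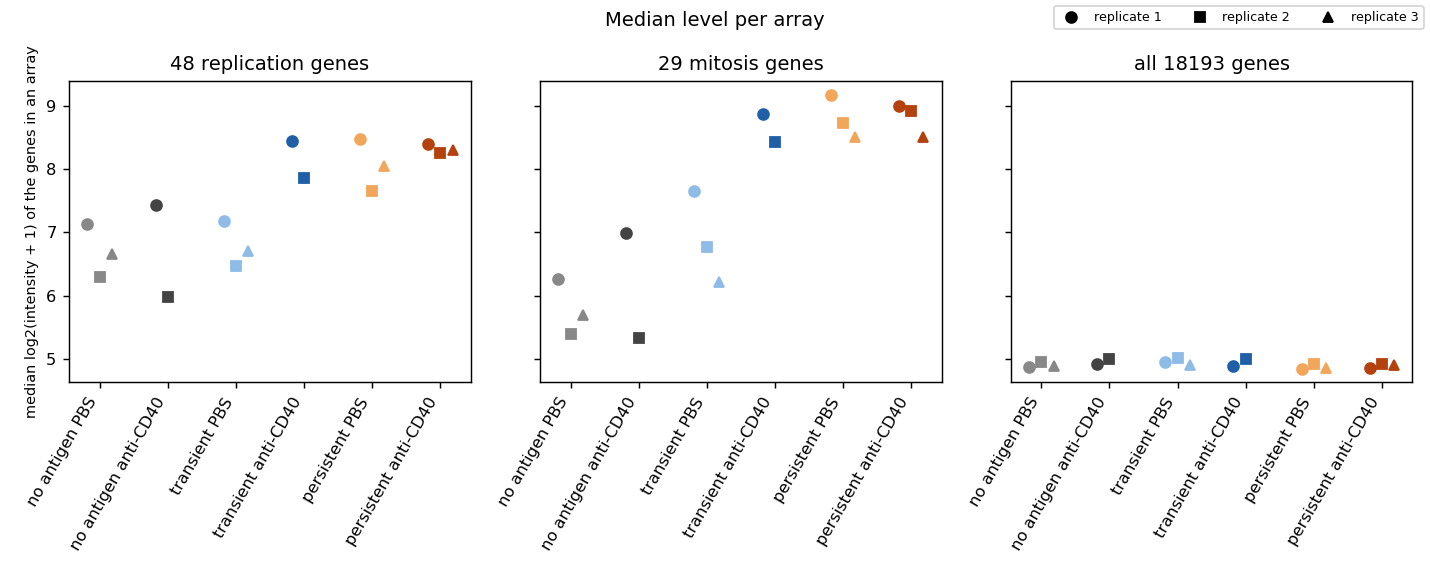
Median log2(intensity + 1) per array (y axis) over the 48 replication genes, 29 mitosis genes and all 18193 genes, by group (x axis), with 1 mark per array and the shape giving the replicate number. Replication genes with transient antigen and PBS lie at 6.48 to 7.17, within the range without antigen, and at 7.86 to 8.45 with anti-CD40.

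The dependence of the duration effect on anti-CD40 was tested directly. The interaction is the anti-CD40 difference with persistent antigen minus that with transient antigen. Without the block no gene passed (28 had an unadjusted p under 0.05), and 30 passed with it, all below 0, where 0% and 1.52% of all genes passed in this direction. The median was -1.48 without and -1.40 with the block. Within replicate 1 the median was -1.54 and within replicate 2 it was -1.09. The count of 30 was 8 without transient anti-CD40 replicate 1 or without persistent PBS replicate 3, 11 without persistent anti-CD40 replicate 1, 14 without transient anti-CD40 replicate 2 and 19 without transient PBS replicate 3. The corresponding interaction between transient or no antigen and anti-CD40 gave 0 genes without the block (32 with an unadjusted p under 0.05) and 34 with it, all above 0, where 0% and 3.09% of all genes passed in this direction. Its count was 11 without no antigen, anti-CD40, replicate 2, and 22 without transient anti-CD40 replicate 1. Both interactions share the transient arrays.

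**Figure D4:**
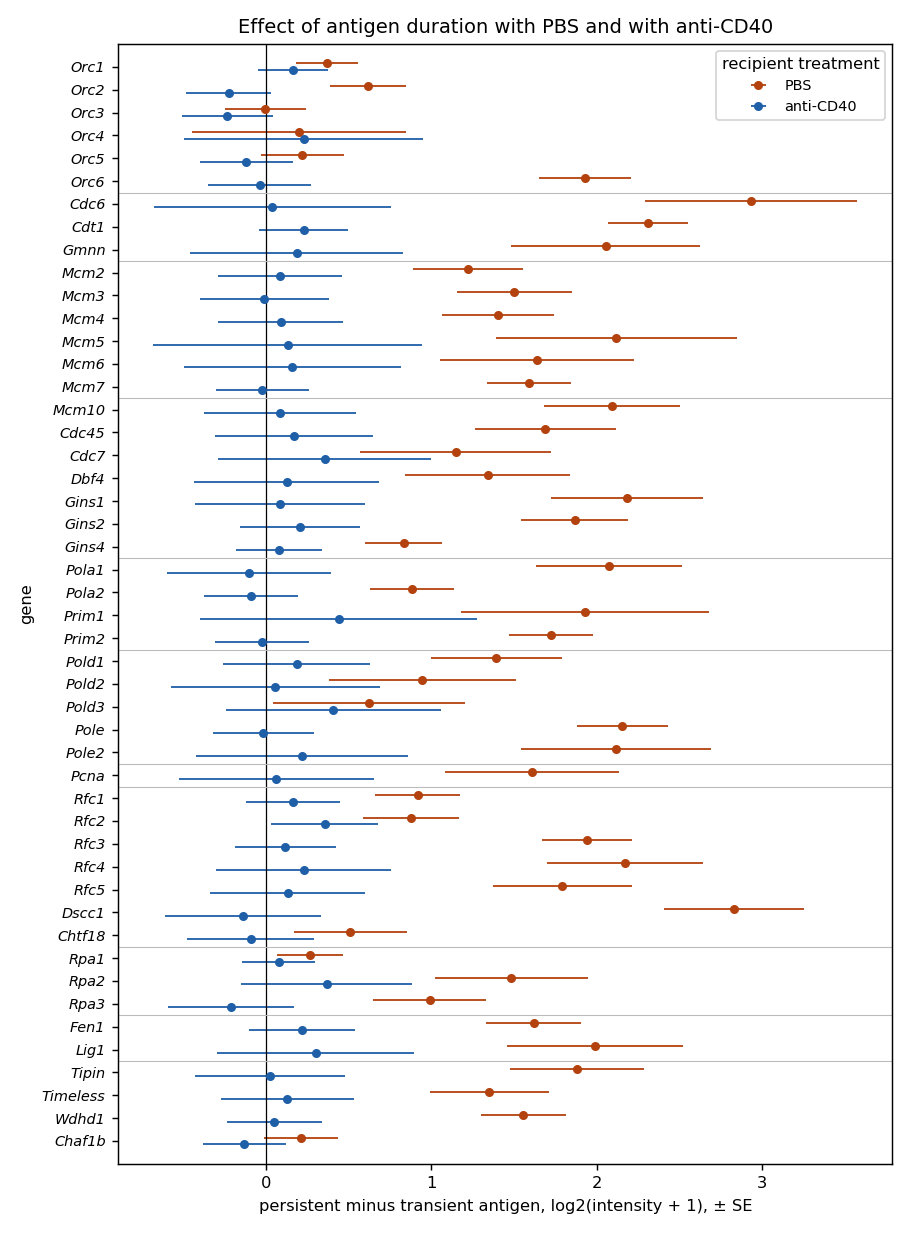
Persistent minus transient antigen in log2(intensity + 1) (x axis, point ± SE) for each of the 48 genes (y axis), with PBS and with anti-CD40. Points with anti-CD40 lie between -0.23 and 0.44, and points with PBS lie between -0.0034 (Orc3) and 2.94.

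Below, the genes are taken by role, with values in log2(intensity + 1) listed in the order of replicate numbers. Each difference carries its standard error after ±, and p-values are those of limma's moderated test, adjusted over all genes. Below the median probe set of 4.37 a level may be mostly background, and a fold from such a level is approximate. The genes shown in full are the largest and smallest difference of each complex (for complexes of 3 or fewer genes, and the clamp, the largest).

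Among the 6 subunits of the origin recognition complex, which marks origins throughout the cycle, Orc6 was the one gene called over no antigen with PBS. There 1 of 6 rose in both fits, and the median difference was 0.37. Over transient antigen, and with anti-CD40 and transient antigen, Orc2 rose as well with the block (2 of 6). Orc6 read 5.91, 5.72 and 5.38 without antigen and with PBS, and 6.15 and 5.40 with anti-CD40. Orc6 with transient antigen read 5.83, 5.67 and 5.61 with PBS and 8.22 and 7.87 with anti-CD40, and with persistent antigen 8.04, 7.58 and 7.29 and 8.004, 8.38 and 7.63. The 8 arrays of the last 3 groups all lay above the other 8, with nothing between 6.15 and 7.29. Orc6 rose 3.92-fold with persistent against no antigen and PBS (1.97 ± 0.28, adjusted p = 0.0012) and 5.06-fold with anti-CD40 against PBS and transient antigen (2.34 ± 0.31, adjusted p = 0.0096). Orc5, by contrast, read 6.59, 6.72 and 6.26 without antigen and with PBS, and 6.31 and 5.89 with anti-CD40. Orc5 with transient antigen read 6.34, 5.92 and 6.43 with PBS and 6.97 and 6.19 with anti-CD40, and with persistent antigen 6.77, 6.19 and 6.39 and 6.47, 6.53 and 6.39. The 3 groups with PBS overlapped, and the persistent difference was -0.08 ± 0.25, with a 95% interval of -0.61 to 0.46. The difference between Orc6 and the other subunits was not tested. The probe set matters here: the second probe sets of Orc1 and Orc2 gave 1.36 and 0.92 in this comparison, against 0.40 and 0.38 for the brighter ones used, and passed with the block only (adjusted p = 0.00019 and 0.0019). A dimmer probe set of Orc3 also passed with the block (0.58, adjusted p = 0.031), with the sign opposite to the one used.

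The licensing factors Cdc6 and Cdt1 and the inhibitor of Cdt1, Gmnn, all 3 rose with persistent against no antigen and PBS. With transient against no antigen and PBS none was called, and the differences were 0.46 for Cdc6, 0.53 for Gmnn and -0.68 for Cdt1. Cdc6 read 5.33, 3.52 and 4.22 without antigen and with PBS, and 6.22 and 4.05 with anti-CD40. Cdc6 with transient antigen read 6.08, 4.42 and 3.95 with PBS and 8.40 and 7.53 with anti-CD40, and with persistent antigen 8.33, 7.14 and 7.79 and 8.46, 7.43 and 8.12. Replicate 1 was the highest array of each low group, and no array of the high groups went below 7.14. Cdc6 had the largest persistent difference of the 48, 3.40 ± 0.64 or 10.5-fold (adjusted p = 0.0077), from a level without antigen of 4.36, just below the median probe set of 4.37. With anti-CD40 against PBS and transient antigen it differed by 3.15 ± 0.72 (adjusted p = 0.068), which passed only with the block (adjusted p = 1.2e-05).

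Cdt1 showed the smallest range over the 16 arrays of the 3. Cdt1 read 9.89 and 9.92 with transient antigen and anti-CD40, 9.84, 10.16 and 9.92 with persistent antigen and PBS and 9.94, 10.53 and 9.93 with persistent antigen and anti-CD40, all above the 8.60 that was the highest of the other arrays. It rose by 2.31 ± 0.24 in persistent against transient antigen with PBS (adjusted p = 0.00058) and by 2.24 ± 0.27 with anti-CD40 against PBS and transient antigen (adjusted p = 0.0078). The first of these is 4.96-fold, from a transient level below that without antigen. Gmnn rose by 2.59 ± 0.57 over no antigen (adjusted p = 0.021) and by 2.05 ± 0.57 over transient antigen with the block only (adjusted p = 0.13, and adjusted p = 7.8e-06 with it).

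All 6 subunits of the MCM2-7 ring, the motor that unwinds DNA, were higher in every persistent than in every no-antigen array with PBS. Mcm3, Mcm4 and Mcm7 rose in both fits and Mcm2, Mcm5 and Mcm6 with the block only. Mcm5 read 8.40, 6.38 and 7.86 without antigen and with PBS, and 8.84 and 6.42 with anti-CD40. Mcm5 with transient antigen read 8.79, 6.37 and 7.43 with PBS and 10.38 and 9.27 with anti-CD40, and with persistent antigen 10.27, 8.69 and 9.997 and 10.24, 9.46 and 10.17. Replicate 2 was the lowest in every group, and the persistent PBS array of replicate 2 (8.69) lay below the transient PBS array of replicate 1 (8.79). The Mcm5 difference of 2.11 ± 0.73 (adjusted p = 0.17) passed with the block (adjusted p = 7.2e-06), and within replicates 1, 2 and 3 it was 1.87, 2.31 and 2.14. Mcm2 read 8.05, 8.07 and 7.83 without antigen and with PBS, and 8.46 and 7.51 with anti-CD40. Mcm2 with transient antigen read 8.17, 7.57 and 7.55 with PBS and 9.60 and 8.88 with anti-CD40, and with persistent antigen 9.43, 8.47 and 9.06 and 9.64, 8.996 and 9.34. Its high groups cleared the low ones by 0.01, from 8.46 to 8.47, and its difference was the smallest of the ring, 1.01 ± 0.33 (adjusted p = 0.15, and adjusted p = 0.00044 with the block). Mcm7, at 11.41, 11.10 and 11.35 against 9.99, 9.53 and 10.09, changed by 1.42 ± 0.25 (adjusted p = 0.0054), 1.59 ± 0.25 over transient antigen (adjusted p = 0.0092) and 1.77 ± 0.28 with anti-CD40 and transient antigen (adjusted p = 0.020).

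The factors that activate the helicase changed almost as a whole. Of Mcm10, Cdc45, Cdc7, Dbf4, Gins1, Gins2 and Gins4, 6 of 7 rose with persistent against no antigen and PBS, and Cdc7 with the block only. The median difference was 1.94. Gins1, of the GINS ring that sits on the active helicase, read 6.03, 4.50 and 5.41 without antigen and with PBS, and 6.47 and 4.92 with anti-CD40. Gins1 with transient antigen read 6.03, 5.25 and 4.88 with PBS and 8.17 and 7.43 with anti-CD40, and with persistent antigen 8.13, 7.21 and 7.37 and 8.11, 7.81 and 7.73. All 8 arrays of the high groups were at 7.21 or more, and the others at 6.47 or less. Gins1 rose by 2.26 ± 0.46 over no antigen (adjusted p = 0.012) and 2.18 ± 0.46 over transient antigen (adjusted p = 0.040). Gins4, of the same ring, had the smallest difference of the 7. Gins4 read 7.09, 6.80 and 7.03 without antigen and with PBS, and 7.31 and 6.54 with anti-CD40. Gins4 with transient antigen read 7.15, 7.002 and 7.11 with PBS and 8.18 and 7.90 with anti-CD40, and with persistent antigen 8.09, 7.65 and 8.02 and 8.07, 8.03 and 8.26. Its persistent arrays with PBS did not overlap those without antigen and with PBS. The difference of 0.95 ± 0.23 passed (adjusted p = 0.036), while that over transient antigen passed with the block only (0.83, adjusted p = 0.13, and adjusted p = 0.0014 with it). Cdc45, which binds MCM2-7 and GINS in the working helicase, rose by 2.13 ± 0.42 (adjusted p = 0.011). Another probe set of Cdc45 read 0.32 lower in the persistent group, a difference that did not pass in either fit (-0.32, adjusted p = 0.72 and 0.41). The kinase Cdc7 overlapped between groups, at 9.90, 8.76 and 9.53 against 8.98, 7.54 and 8.16, and its partner Dbf4 did not, at 9.16, 8.37 and 8.31 against 7.44, 6.001 and 6.43. Dbf4 was also the gene with the largest increase of transient over no antigen with PBS, 0.65 ± 0.50, which passed in neither fit (adjusted p = 0.9998, and adjusted p = 0.092 with the block).

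Polymerase alpha-primase, which lays down the first RNA and DNA of each fragment, had 2 of 4 subunits rising with persistent over no antigen, and 3 with the block. Its catalytic subunit Pola1 read 7.12, 5.92 and 6.81 without antigen and with PBS, and 7.66 and 5.88 with anti-CD40. Pola1 with transient antigen read 7.60, 6.83 and 6.33 with PBS and 9.24 and 9.13 with anti-CD40, and with persistent antigen 9.32, 8.91 and 8.77 and 9.07, 9.35 and 8.83. The high groups began at 8.77 and the others ended at 7.66. Pola1 rose 5.22-fold over no antigen (2.38 ± 0.44, adjusted p = 0.0070) and 4.22-fold over transient antigen (2.08 ± 0.44, adjusted p = 0.044). The accessory subunit Pola2 read 5.24, 5.26 and 5.42 without antigen and with PBS, and 5.20 and 5.03 with anti-CD40. Pola2 with transient antigen read 4.95, 4.80 and 5.34 with PBS and 6.69 and 5.84 with anti-CD40, and with persistent antigen 6.40, 5.77 and 5.56 and 6.16, 6.33 and 6.04. Persistent and no-antigen arrays did not overlap with PBS, with 5.56 the lowest persistent and 5.42 the highest no-antigen array, and 0.61 ± 0.25 passed in neither fit (adjusted p = 0.30, and adjusted p = 0.058 with the block). Of the primase subunits, Prim2 rose by 1.70 ± 0.25 (adjusted p = 0.0018), and catalytic Prim1 by 2.06 ± 0.75 with the block only (adjusted p = 0.21, and adjusted p = 2.6e-06 with it). Prim1 ranged widely within groups, from 6.22 to 8.08 without antigen and PBS. Another probe set of Prim2 had the opposite sign in persistent over transient antigen with PBS and was not called there.

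Among polymerases delta and epsilon, which copy the lagging and leading strand, Pole alone rose without the block and all 5 genes rose with it. Pole, the catalytic subunit of epsilon, read 5.08, 4.58 and 5.20 without antigen and with PBS, and 5.55 and 5.24 with anti-CD40. Pole with transient antigen read 5.13, 4.91 and 4.80 with PBS and 7.34 and 7.24 with anti-CD40, and with persistent antigen 7.01, 7.40 and 6.89 and 6.86, 7.94 and 7.03. The low arrays spanned 4.58 to 5.55 and the high ones 6.86 to 7.94, and here replicate 2 was the highest of the persistent arrays. Pole rose 4.43-fold over no antigen (2.15 ± 0.27, adjusted p = 0.00074) and 5.08-fold with anti-CD40 and transient antigen (2.34 ± 0.31, adjusted p = 0.0096). Pold3, a small subunit of delta, read 8.03, 6.90 and 7.49 without antigen and with PBS, and 8.06 and 6.78 with anti-CD40. Pold3 with transient antigen read 7.97, 6.80 and 7.92 with PBS and 8.98 and 7.66 with anti-CD40, and with persistent antigen 8.92, 6.84 and 8.81 and 8.95, 8.13 and 9.09. Replicate 2 was the lowest in every group, and its persistent PBS array (6.84) was no higher than that without antigen (6.90). The Pold3 difference of 0.72 ± 0.58 (adjusted p = 0.74) passed with the block (adjusted p = 0.022) and was 0.89, -0.06 and 1.32 within replicates 1, 2 and 3. The catalytic subunit Pold1 and the subunit Pold2 changed by 1.16 and 1.08, and Pole2 by 1.84, each with the block only.

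Pcna, the ring that holds the polymerases on DNA, read 11.04, 9.55 and 9.98 without antigen and with PBS, and 10.99 and 9.02 with anti-CD40. Pcna with transient antigen read 10.85, 9.59 and 9.81 with PBS and 12.25 and 11.42 with anti-CD40, and with persistent antigen 12.30, 11.08 and 11.71 and 12.21, 11.78 and 11.69. The high groups began at 11.08 and the others ended at 11.04. The difference of 1.51 ± 0.53 did not pass without the block (adjusted p = 0.18) and passed with it (adjusted p = 2.4e-05), and the replicates gave 1.26, 1.53 and 1.73. Over transient antigen it was 1.61 ± 0.53 (adjusted p = 0.21, and adjusted p = 2.9e-05 with the block).

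The clamp loaders include replication factor C, Rfc1 to Rfc5, and the alternative loader subunits Dscc1 and Chtf18, which act with the small Rfc subunits. With persistent over no antigen and PBS 4 of 7 rose and all 7 with the block, with a median of 1.93. Dscc1, which serves sister chromatid cohesion, read 4.09, 3.34 and 3.99 without antigen and with PBS, and 4.99 and 3.71 with anti-CD40. Dscc1 with transient antigen read 4.34, 3.44 and 3.70 with PBS and 7.34 and 6.38 with anti-CD40, and with persistent antigen 7.15, 5.86 and 6.96 and 6.74, 6.26 and 7.17. The high groups began at 5.86 and the others ended at 4.99. Dscc1 rose by 2.85 ± 0.42 over no antigen (adjusted p = 0.0017), 2.83 ± 0.42 over transient antigen (adjusted p = 0.0064) and 3.04 ± 0.47 with anti-CD40 and transient antigen (adjusted p = 0.019), and its low groups were below the median probe set in 7 of 8 arrays. Chtf18, in the same alternative loader, read 3.82, 3.49 and 4.04 without antigen and with PBS, and 4.19 and 3.21 with anti-CD40. Chtf18 with transient antigen read 4.14, 3.60 and 3.98 with PBS and 5.30 and 3.86 with anti-CD40, and with persistent antigen 4.87, 4.06 and 4.33 and 4.76, 4.23 and 4.48. Of these arrays 12 of 16 were below the median probe set, and 0.64 ± 0.34 passed with the block only (adjusted p = 0.49, and adjusted p = 0.016 with it). Of replication factor C, the small subunits Rfc3, Rfc4 and Rfc5 rose by 2.30, 2.31 and 1.93 in both fits. The large subunit Rfc1 and Rfc2 were higher by 0.92 and 0.96 and passed with the block only.

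RPA, the trimer that coats single-stranded DNA, had 0 of 3 genes called with persistent over no antigen and PBS, and 3 with the block. Rpa2 read 7.08, 6.34 and 7.22 without antigen and with PBS, and 7.44 and 5.78 with anti-CD40. Rpa2 with transient antigen read 7.09, 6.09 and 6.73 with PBS and 8.64 and 7.43 with anti-CD40, and with persistent antigen 8.69, 7.59 and 8.07 and 8.56, 8.02 and 8.63. Persistent and no-antigen arrays with PBS did not overlap, though the array of transient antigen with anti-CD40 in replicate 2 (7.43) sat beside the array without antigen and with anti-CD40 in replicate 1 (7.44). The difference was 1.24 ± 0.46 (adjusted p = 0.22, and adjusted p = 0.00010 with the block). Rpa1, the large subunit, had the smallest difference of the 3, at 11.69, 11.35 and 11.65 against 10.92, 10.84 and 10.99. Its transient arrays with PBS (11.41, 11.25 and 11.22) were all above those without antigen, by 0.38 ± 0.20, which passed in neither fit (adjusted p = 0.9998, and adjusted p = 0.17 with the block). It was not called in persistent over transient antigen (-0.16 to 0.69 as the 95% interval). Rpa3 was higher by 1.07 and passed with the block only.

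Both lagging-strand enzymes rose with persistent over no antigen and PBS: Fen1, which trims flaps off the fragments, and Lig1, which seals them. Lig1 read 7.67, 6.36 and 7.11 without antigen and with PBS, and 8.14 and 6.13 with anti-CD40. Lig1 with transient antigen read 8.06, 6.69 and 6.72 with PBS and 9.58 and 8.70 with anti-CD40, and with persistent antigen 9.69, 8.53 and 9.21 and 9.66, 9.21 and 9.45. High groups began at 8.53 and the others ended at 8.14, the first being the persistent PBS array of replicate 2 and the second the anti-CD40 array without antigen of replicate 1. Lig1 rose 4.28-fold over no antigen (2.10 ± 0.53, adjusted p = 0.043) and, with the block only, 3.97-fold over transient antigen (1.99 ± 0.53, adjusted p = 0.11, and adjusted p = 1.0e-05 with it). Fen1 rose by 1.63 over no antigen (adjusted p = 0.0053), 1.62 over transient antigen (adjusted p = 0.016) and 1.59 with anti-CD40 and transient antigen (adjusted p = 0.041).

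The last group holds Tipin and Timeless, partners at the fork, Wdhd1, which links polymerase alpha to the helicase, and Chaf1b, of the factor that places histones on new DNA. Of these 4, Tipin and Wdhd1 rose with persistent over no antigen and PBS in both fits. Tipin read 7.08, 6.23 and 6.52 without antigen and with PBS, and 7.42 and 5.69 with anti-CD40. Tipin with transient antigen read 7.29, 6.70 and 6.70 with PBS and 9.45 and 8.82 with anti-CD40, and with persistent antigen 9.21, 8.29 and 8.83 and 9.05, 9.41 and 9.02. High groups began at 8.29 and the others ended at 7.42. Tipin rose 4.51-fold over no antigen (2.17 ± 0.41, adjusted p = 0.0073). Its partner Timeless, at 8.39, 7.81 and 7.84 with persistent antigen and PBS, was not called against no antigen (0.43 ± 0.36, adjusted p = 0.76), where its other probe set passed with the block only (0.60, adjusted p = 0.019), and rose with the block against transient antigen (1.35 ± 0.36, adjusted p = 0.11, and adjusted p = 0.00027 with it). Anti-CD40 with transient antigen raised Timeless by 1.38 ± 0.40 with the block only (adjusted p = 0.16, and adjusted p = 0.0011 with it). Chaf1b read 3.80, 3.70 and 3.62 without antigen and with PBS, and 3.89 and 3.60 with anti-CD40. Chaf1b with transient antigen read 3.84, 3.91 and 3.87 with PBS and 4.86 and 3.63 with anti-CD40, and with persistent antigen 4.28, 4.05 and 3.92 and 4.12, 4.11 and 4.11. Of these arrays 15 of 16 lay below the median probe set, and no comparison called Chaf1b in either fit.

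**Figure D5:**
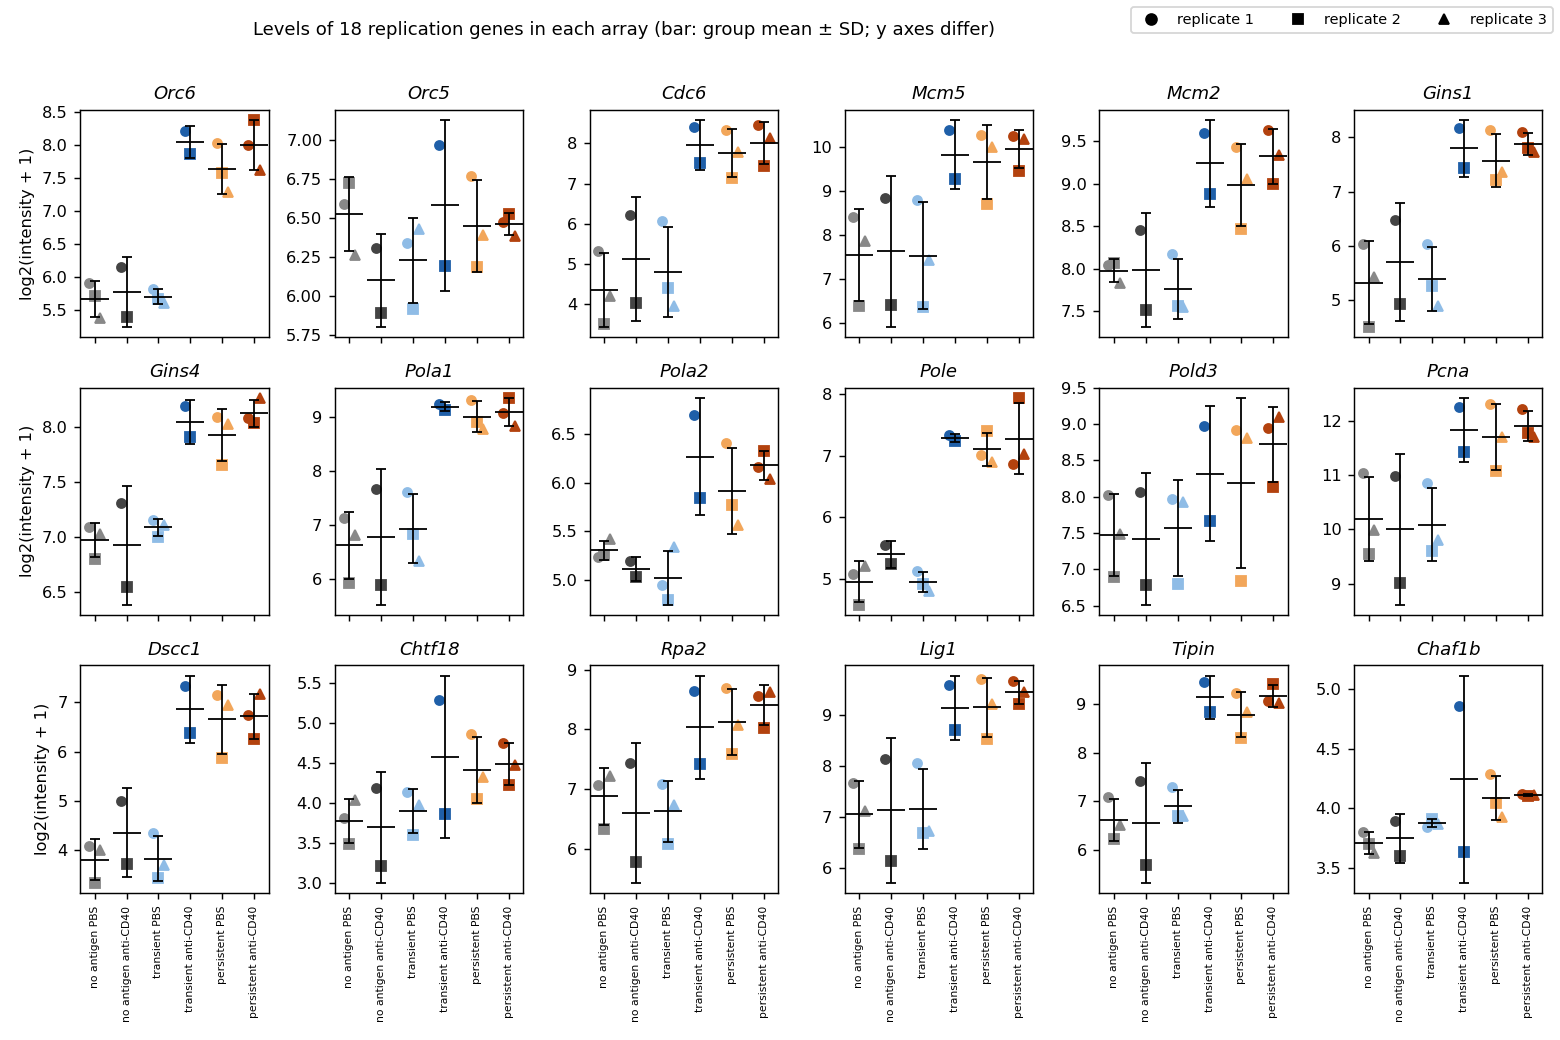
Log2(intensity + 1) of 18 replication genes in each of the 16 arrays (y axes differ between panels), by group (x axis), with group means ± SD and the mark giving the replicate. Orc6, Pola1 and Pole separate the 3 high groups from the 3 low ones by more than 1, while Orc5, Pold3 and Chaf1b overlap.

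The genes also followed each other across arrays. Pearson's r of each gene with the median of the other 47 over the 16 arrays was 0.389 to 0.992 (median 0.946), above 0.9 for 32 genes, with Rfc5 and Lig1 at the top and Orc3 at the bottom. The arrays share groups, replicates and scaling, so r is given as a description. Within groups, after taking out each group's mean, r was 0.97 for Gmnn and Lig1 and 0.961 for Pcna, against 0.203 for Pole, 0.07 for Prim2 and -0.105 for Rfc1. Mcm5 and Mcm7, of the same ring, spanned 4.01 and 2.24 over the arrays, with r of 0.965 and 0.941.

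Of 52 further probe sets for these genes 14 were dim. In persistent over no antigen with PBS 5 of the 52 had the sign opposite to the probe set used, in genes called there for 2, Cdc45 and Mcm10. None of the 52 was called in the opposite direction in any of the 12 comparisons without the block.

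Other replication genes, a list of 40 names of which 38 were measured, moved in the same comparisons. With persistent over no antigen and PBS 11 of 38 rose and 26 with the block, with a median of 0.78, where 2.20% and 9.93% of all genes rose. Over transient antigen 2 rose, and with the block 23 rose and 1 fell. There 0.605% and 5.99% of all genes rose, and 5.44% fell with the block. With anti-CD40 and transient antigen 4 rose, and with the block 26 rose and 1 fell. Of all genes 0.522% and 7.59% rose there, and 2.92% fell with the block. Clspn, the checkpoint mediator that travels with the fork, rose by 2.66 ± 0.31 over no antigen (adjusted p = 0.00050), 2.17 ± 0.31 over transient antigen (adjusted p = 0.0051) and 1.95 ± 0.35 with anti-CD40 and transient antigen (adjusted p = 0.029). Ticrr, needed to load Cdc45, rose by 1.35 ± 0.24 (adjusted p = 0.0056), and the nuclease-helicase Dna2 by 2.60 ± 0.51 (adjusted p = 0.010), each over no antigen. The gene that fell was Pold4, the smallest subunit of polymerase delta, which with the block was lower in persistent than transient antigen with PBS (-0.73 ± 0.23, adjusted p = 0.043) and in anti-CD40 than PBS with transient antigen (-0.91 ± 0.26, adjusted p = 0.028).

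A list of 29 measured mitosis genes lay higher with transient antigen and PBS than without antigen. Its median per array was 6.26, 5.40 and 5.69 without antigen and 7.66, 6.78 and 6.22 with transient antigen, and 9.18, 8.73 and 8.51 with persistent antigen. Transient over no antigen with PBS had a median of 0.89 in the mitosis genes, 0 of them called without the block (7 with an unadjusted p under 0.05) and 11 with it, against 0.04 and 0 and 1 in the replication genes. Of all genes 0.126% were called there in either direction, and 2.89% with the block (2.02% higher). With persistent over no antigen 26 of 29 mitosis genes rose, and 28 with the block, with a median of 2.76, where 2.20% and 9.93% of all genes rose. The difference between the lists was not tested.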

How the data were processed

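RNA of 16 samples was measured on 1 Affymetrix mouse array each (45101 probe sets), after 2 rounds of amplification per the labels' protocols. The deposited values are intensities on a linear scale. RMA is the tool named in the submitters' processing notes, without a version. Log2(intensity + 1) of the deposited values was analysed without normalizing again, and the pseudocount shrinks differences between dim genes. GEO's platform annotation gave one symbol to 34945 probe sets, several to 932 and none to 9160, and 64 were array controls. The 34945 covered 18193 genes, and the probe set brightest on average stood for each. Every member could be represented, and no filter on low values was used.

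A linear model of 6 group means over all 16 arrays was fitted with limma 3.58.1 (R 4.3.3), with moderated statistics, an intensity trend and no block, and Benjamini-Hochberg adjustment over all genes. An adjusted p under 0.05 made a call, written as rose or fell. Same-numbered arrays deviated together (r 0.48 to 0.81, median 0.68, in 36 pairs, against a median of -0.53 in 70 pairs with different numbers), and all 16 arrays correlated best with their own number. Deviations from a group mean cancel out within the group, which pushes pairs with different numbers to the negative side. Their median therefore adds no separate evidence of pairing. This pairing comes from the data, as the labels are silent on it, and a second model added the replicate number as a block. Intervals are 95% intervals of the fit without the block.

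Named genes were, by rule, all listed members by complex, with the largest and smallest difference of a complex in persistent over no antigen with PBS shown in full. Members and lists were chosen with earlier results of these data known. Cdt1, Timeless, Dbf4, Mcm7, Cdc45, Cdc7, Rpa1 and the other genes given values were added after their values were seen. The fit was checked on simulated data with known changes. Alternatives were a block for the 4 runs of array numbers, the compared groups alone, cyclic loess, log2(intensity + 16), no dim genes, mean probe sets and leaving out each array. The interaction of transient antigen and anti-CD40, replicates 1 and 3 alone, and alternatives to the blocked counts were chosen after seeing the data. Listed names without a matching symbol are not analysed here. Figures were drawn with Python 3.11.15, pandas 2.3.3 and matplotlib 3.10.9.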

Additional observations from a re-analysis of the deposited data

Results flagged for a closer look

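The interaction of antigen duration and anti-CD40 differed from 0, by the test of the difference itself with the replicate block, in 30 of the 48 genes, and in none without it. With the block 1.52% of all genes passed in this direction, and the count of 30 fell to 8 without persistent PBS replicate 3. Among the genes shown in full that passed with the block, its values were -1.83 for Orc6, -2.79 for Cdc6, -2.08 for Mcm5, -1.11 for Mcm2, -2.004 for Gins1, -2.07 for Pola1, -2.13 for Pole, -1.46 for Pcna, -3.07 for Dscc1, -1.19 for Rpa2, -1.65 for Lig1 and -1.81 for Tipin. Each means that anti-CD40 changed the gene less with persistent than with transient antigen. Orc5, Gins4, Pola2, Pold3, Chtf18 and Chaf1b, also shown in full, did not pass in either fit.

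The interaction of transient antigen and anti-CD40 passed in 34 genes with the block and in none without it. With the block 3.09% of all genes passed in this direction, and the count of 34 also depended on single arrays, as given above. It was 2.20 for Cdt1 and 1.78 for Timeless, the 2 genes whose transient arrays with PBS all lay below those without antigen, as did 3.04% of all genes. These genes were chosen for that separation. The interaction subtracts the same difference between transient and no antigen with PBS, so the choice itself raises their values. Both interactions rest on the transient arrays, and the cause of neither was tested.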

How the results depend on the processing

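Counts of called genes depended on the replicate block, on the arrays included and on the scaling. Without the block, 64 of 87 alternative counts stayed within 1.5 times and 23 did not. With the replicate block the counts were 40 instead of 24 for persistent over no antigen with PBS, 40 instead of 16 over transient antigen, 42 instead of 9 and 43 instead of 21 for transient and persistent over no antigen with anti-CD40, 42 instead of 12 for anti-CD40 with transient antigen, 1 instead of 0 for transient over no antigen with PBS, and 30 and 34 instead of 0 for the interactions. Every gene called without the block was also called with it. A block for runs of array numbers gave 40, 40, 39, 42, 42, 2, 33 and 35 in that order. Cyclic loess gave 30 over transient antigen with PBS and 29 for anti-CD40 with transient antigen. The compared groups alone, with fewer arrays to estimate the spread, gave 3 over transient antigen with PBS and 0 in the other 3 comparisons named above that involve anti-CD40, and replicates 1 and 3 alone gave 30 over transient antigen with PBS. With the block 58 of 60 counts stayed, and transient over no antigen became 2 under cyclic loess and 2 without dim genes.

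Leaving out 1 array at a time, the counts without the block were 13 to 25 and 6 to 20 for persistent over no and transient antigen with PBS, 0 to 24 and 0 to 31 for transient and persistent over no antigen with anti-CD40, and 0 to 17 for anti-CD40 with transient antigen. With the block they were 38 to 42, 37 to 41, 33 to 43, 36 to 43 and 33 to 42, and 0 to 3 for transient over no antigen with PBS, 8 to 33 and 11 to 35 for the interactions. No called gene changed sign. Other comparisons kept 0 calls. The causes were not tested. Groups of 2 or 3 arrays limit the precision, and dim genes such as Chaf1b, Chtf18 and Dscc1 have signals near background.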
